A study of Rattus norvegicus with 3 samples.

Results

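Notch signalling was described here through 9 genes of the rat thymus: the ligands Dll1, Dll4, Jag1 and Jag2, the receptors Notch1, Notch2 and Notch3, and the targets Hes1 and Dtx1. They were chosen by name as parts of the pathway, with earlier results of these data known, and are 9 of the 34034 genes in the count tables. The data came from thymi of 8-week-old rats of the inbred Lewis strain, with no treatment or genetic change named. A stromal library was enriched for cells without the leukocyte antigen CD45 by a magnetic and then a flow-cytometric sort, after digestion with DNase I and Liberase TH. It still held cells labelled Myeloid (505), Thymocyte (411) and B cell (179). For a thymocyte library, DNase I was combined with collagenase D. Both libraries were made with 10x Genomics Chromium chemistry, and a spatial section of the same study was not used here. Each library was 1 sample, so no difference below has a replicate check and no p-value is given.

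Notch receptors are cut after they bind a ligand on a neighbouring cell, and the freed intracellular domain joins the DNA-binding protein RBPJ to switch on genes such as Hes1. In the thymus, Notch1 on incoming progenitors and Dll4 on cortical epithelium are known to direct cells into the T lineage. In vessels, Dll4 and Jag1 on endothelium and Notch3 on mural cells are known for arterial identity and for the smooth muscle coat.

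A cell's label was the authors' projected label or, where none was given, their initial cluster. Of 16160 stromal barcodes, 13226 had a label, with a median of 9087.5 UMIs (unique molecular identifiers, the counted molecules) per cell. Of 8574 barcodes of the thymocyte library, 8546 had a label, with a median of 3994 UMIs. Labels of at least 20 cells were used, 24 stromal and 21 in the thymocyte library. A level is the sum of a gene's UMIs in a label per 1000000 UMIs of that label (CPM), with an exact 95% Poisson interval. These intervals, and the exact intervals of ratios and shares, cover counting error only. The libraries shared 38 barcode sequences, 0.443% of the thymocyte library.

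Several labels went against their markers in part, which touches the values below. The cTEC label (cortical thymic epithelium) held 1731 CPM of a 5-gene cortical list but 7317 CPM of a 5-gene medullary list, against 7080 CPM of the latter in the medullary label mTEC1. The gdT label (γδ T cells) had 111 of its 128 cells in the authors' DN cluster, and a 4-gene list of double-negative (DN) stages stood at 317 CPM there, against 45.6 CPM in the DN label itself. Of that list, Il7r alone stood at 243 CPM in gdT and Il2ra at 8.45 CPM, and Il7r was also high in mature labels (327 CPM in Mature CD4-1). Sox13, a regulator known from γδ T cells, stood at 11.8 CPM in gdT and 1.75 CPM in DN, and γδ receptor genes were not matched by symbol. The DN label carried 702 CPM of Cd8a, a gene of later stages, and 450 CPM of the proliferation gene Mki67. The stromal Thymocyte label held 11987 CPM of a fibroblast list beside 7064 CPM of a thymocyte list, and the small labels aaTEC2 and nmSC held 29264 and 18361 CPM of the fibroblast list. Names below are the authors' labels.

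Start-site windows show which members carry the letters that RBPJ is known to bind. Windows of 300 bases, from 250 before to 50 after a start, were available for 8 of the 9 members in RefSeq (GRCr8). Dll1, Notch3 and Hes1 held the core TGGGAA on either strand, 3 of 8 members, against 25.7% of all 33469 windows. The windows of these 3 are printed because they hold that core, and the results turn most on Hes1 and Notch3. Capitals mark TGGGAA or, on the other strand, TTCCCA.
Hes1 (chr11:84212996-84213295, minus strand): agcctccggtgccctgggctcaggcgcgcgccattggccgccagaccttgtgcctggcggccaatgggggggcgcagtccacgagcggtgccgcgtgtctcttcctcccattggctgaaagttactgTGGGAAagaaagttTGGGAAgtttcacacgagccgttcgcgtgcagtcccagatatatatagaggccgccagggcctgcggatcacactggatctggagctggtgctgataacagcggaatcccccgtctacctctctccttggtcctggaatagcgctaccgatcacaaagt
Notch3 (chr7:11834536-11834835, minus strand): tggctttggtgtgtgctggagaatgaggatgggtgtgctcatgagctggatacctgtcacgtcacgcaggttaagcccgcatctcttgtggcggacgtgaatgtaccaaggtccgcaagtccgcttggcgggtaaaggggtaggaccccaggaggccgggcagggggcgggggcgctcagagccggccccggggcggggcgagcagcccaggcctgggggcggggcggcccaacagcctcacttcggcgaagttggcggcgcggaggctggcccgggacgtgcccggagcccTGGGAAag
Dll1 (chr1:64993225-64993524, minus strand): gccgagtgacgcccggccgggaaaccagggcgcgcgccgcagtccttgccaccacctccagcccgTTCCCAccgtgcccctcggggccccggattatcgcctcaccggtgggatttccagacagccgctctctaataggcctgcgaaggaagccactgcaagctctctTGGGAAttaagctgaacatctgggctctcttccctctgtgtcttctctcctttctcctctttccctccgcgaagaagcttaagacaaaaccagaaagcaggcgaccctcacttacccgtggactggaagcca
Hes1 had 2 cores on its own strand, at -123 and -109 from the start site, and more than 1 core was found in 3.85% of all windows. The first of them lay in the longer form GTGGGAA, as did 1 of the Dll1 cores, and 6.29% of windows held that form. Notch3 had 1 core at 42 bases after the start, and Dll1 had cores at -82 and, on the other strand, at -185. The N box CACNAG, which Hes1 protein is known to bind, was searched on both strands. It matched 4 times each in the Hes1 and Notch1 windows, where 11.2% of windows held more than 1 match. The Notch1 matches at -28 and -26 overlap on opposite strands. Notch3 and Dtx1 had 1 match each, and 43.1% of windows held at least 1. These matches are letters in a window and say nothing of binding in these cells.

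**Figure D1:**
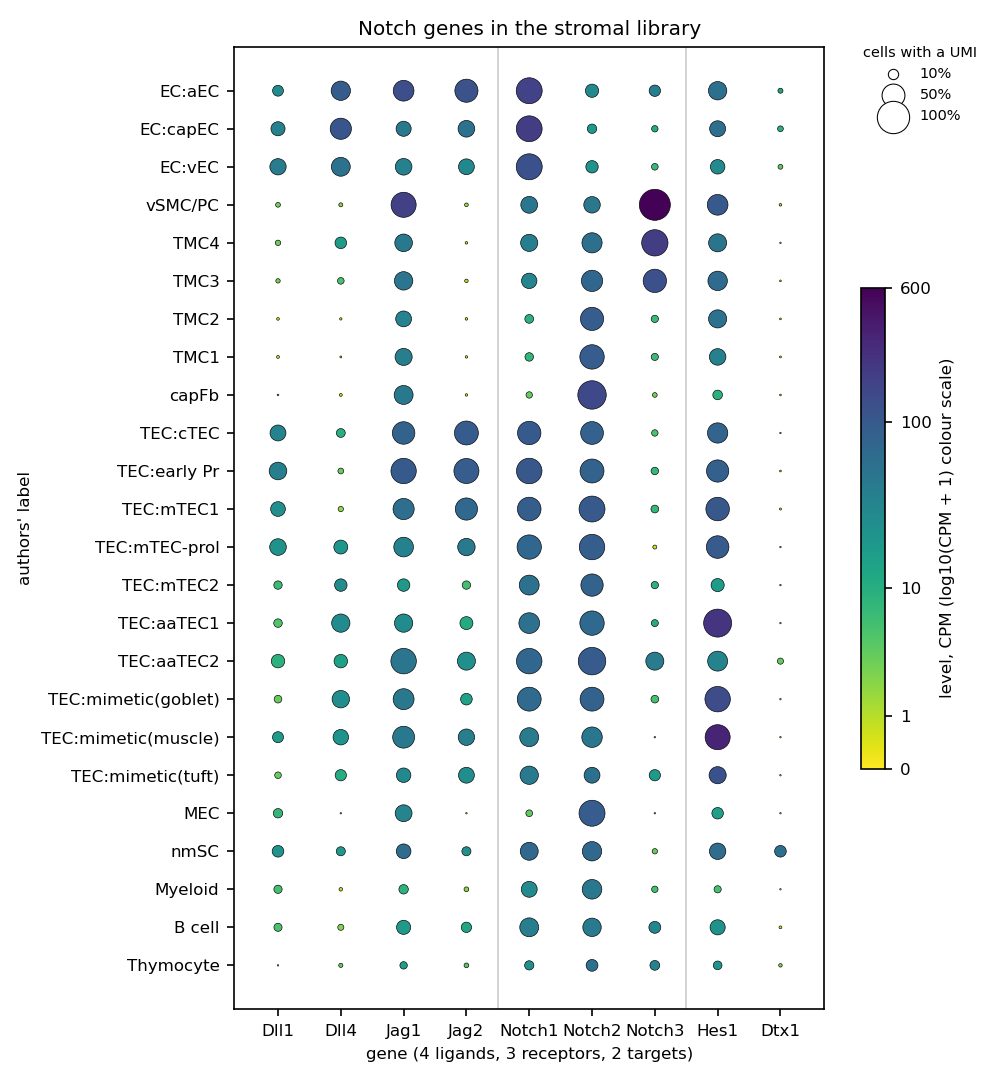
Levels of the 9 genes in the 24 stromal labels: colour is log10(CPM + 1) and dot size the percent of cells with at least 1 UMI. Dll4 and Notch1 are darkest in the endothelial labels, Notch3 in vSMC/PC (582 CPM), and Notch2 in capFb (148 CPM).

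Among the ligands, Dll4 was read mainly in vessels. Its level was 107 CPM (95% interval 97.6 to 117) in capillary endothelium (EC:capEC, 636 cells), 94.9 CPM (74.8 to 119) in arterial endothelium (EC:aEC, 90 cells) and 53.9 CPM (46.6 to 62.0) in venous endothelium (EC:vEC, 344 cells). The capillary and arterial levels did not differ beyond counting error (ratio 1.13, 0.883 to 1.46), whereas the arterial level was above the venous one (1.76, 1.33 to 2.31). Together the 3 endothelial labels held 59.0% of all labelled Dll4 UMIs in this library. Dll4 was found in 42.9% of capillary cells, at a median of 5805.5 UMIs, and in 5 of 505 myeloid cells, at a median of 9510 UMIs. At an equal depth of 1000 UMIs per cell those shares were 11.2% and 0%.

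Outside vessels, Dll4 stood at 27.0 CPM or less in the 21 other stromal labels. The cTEC label, whose namesake cells are known for this ligand, stood at 9.82 CPM (7.27 to 13.0, 49 UMIs in 448 cells). Small epithelial labels stood above it: mTEC2 at 26.3 CPM on 23 UMIs, aaTEC1 at 27.0 CPM on 17 UMIs and the goblet-like mimetic label at 25.7 CPM on 22 UMIs. The cTEC label split by the authors' clusters into TEC-a (72 cells), TEC-b (311 cells) and TEC-c (55 cells). TEC-a, with the highest cortical list of the 3 (2759 CPM) and the lowest medullary list (725 CPM), had 5.11 CPM of Dll4, TEC-b 12.4 CPM and TEC-c 1.08 CPM. With 49 UMIs in the whole label, the TEC-a and TEC-c values rest on few counts, and the order of the 3 is not settled. A further Dll4 site was the fibroblast-like label TMC4, at 17.0 CPM (14.7 to 19.5, 196 UMIs in 1249 cells). The endothelial marker list stood there at 21.3 CPM, against 3962 CPM in EC:capEC.

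Dll1, the other Delta-type ligand, was shared between endothelium and epithelium. Its highest levels were 41.2 CPM in EC:vEC (34.8 to 48.4), 38.4 CPM in the epithelial label early Pr, 36.0 CPM in EC:capEC and 33.5 CPM in cTEC. No neighbouring pair in this upper part of the order differed beyond counting error, the first over the second being 1.07 (0.886 to 1.29). In the fibroblast-like labels it fell away, to 3.20 CPM in TMC4 and 0.0619 CPM (1 UMI) in capFb. Within the cTEC label it stood at 43.5 CPM in TEC-b but 1.70 CPM in TEC-a, the latter on few counts.

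Jag1, a Jagged-type ligand, was the 1 ligand above 0 in all 24 stromal labels. It was highest in vSMC/PC, the label of vascular smooth muscle and pericytes, at 172 CPM (159 to 187, 452 cells), then 129 CPM (105 to 156) in EC:aEC and 100 CPM (94.9 to 106) in early Pr. Each of these differed from the next beyond counting error, with ratios of 1.34 (1.08 to 1.67) and 1.28 (1.04 to 1.57). The lowest level was 8.78 CPM in Myeloid. Of vSMC/PC cells 60.2% had a Jag1 UMI at a median of 6446 UMIs, and of myeloid cells 8.32%. At 1000 UMIs per cell these were 16.4% and 0.994%.

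Jag2, the second Jagged-type ligand, was an epithelial and endothelial transcript. It reached 120 CPM in EC:aEC (97.1 to 146), 95.4 CPM in cTEC, 91.3 CPM in early Pr and 69.3 CPM in mTEC1. Epithelial labels held 79.5% of its labelled UMIs. The 5 fibroblast-like labels together had 40 UMIs in 8216 cells, 0.506 CPM. Unlike Jag1, it was therefore low both there and in vSMC/PC (1.48 CPM, 5 UMIs). Within cTEC it was again uneven, at 117 CPM in TEC-b, 62.4 CPM in TEC-c and, on few counts, 8.51 CPM in TEC-a.

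Thymocytes themselves carried almost no ligand RNA. Jag1 had 0 UMIs over all 20 thymocyte labels and 8344 cells, which allows up to 0.0485 CPM at the limit of 3 UMIs, while the B+myeloid label of the same library had 14. Dll4 had 3 UMIs in those 20 labels, Dll1 had 32 and Jag2 had 50. Of the Dll1 UMIs 14 lay in the gdT label (5.14 CPM), and of the Jag2 UMIs 19 lay in DP-P, 16 in DN and 8 in gdT.

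Among the receptors in stroma, Notch1 followed the endothelial order of Dll4. It stood at 192 CPM in EC:capEC (179 to 205), 167 CPM in EC:aEC (140 to 198) and 122 CPM in EC:vEC (111 to 134). The first 2 did not differ beyond counting error (capillary over arterial 1.15, 0.954 to 1.39), and the arterial level exceeded the venous one 1.37-fold (1.12 to 1.66). Epithelium was close behind, at 106 CPM in early Pr, 101 CPM in cTEC and 90.0 CPM in mTEC1. Fibroblast-like labels ranged from 38.7 CPM in TMC4 to 3.65 CPM in capFb. In single capillary cells, 198 of 636 had UMIs of both Notch1 and Dll4, and these cells were deeper (median 6603 UMIs) than the 155 cells with neither (4325 UMIs).

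Notch2 had another order in stroma. Its highest level was 148 CPM (142 to 154) in the fibroblast-like label capFb, 1.46-fold (1.33 to 1.59) above mTEC1 at 102 CPM. The small label aaTEC2 stood at 97.0 CPM, TMC2 at 93.5 CPM, the small label MEC at 93.0 CPM and TMC1 at 92.3 CPM. The lowest level of all 24 labels was 17.8 CPM in EC:capEC, where Notch1 was at its highest. Over the 18 stromal labels of at least 50 cells the 2 receptors had a Pearson r of -0.59 on log2(CPM + 1), a description over labels of 1 library.

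Notch3 had the clearest single site. It reached 582 CPM (556 to 608, 1962 UMIs) in vSMC/PC, 3.06-fold (2.88 to 3.25) above the next label, TMC4, at 190 CPM (182 to 198). TMC3 followed at 125 CPM (118 to 132), and the labels TMC2 and TMC1 stood at only 7.01 and 6.91 CPM. By the rule of a 3-fold lead over the next label, Notch3 was the sole member with a leading stromal label, while 9.44% of all 13149 genes with enough UMIs had one. In the pathway list, Hes5 led in B cell, and Tcf7, Gata3 and Bcl11b led in the stromal Thymocyte label. Notch3 was read in 92.3% of vSMC/PC cells, 66.2% of TMC4 cells and 4.72% of TMC1 cells, at medians of 6446, 8717 and 9749 UMIs, and in 3.76% of myeloid cells. At 1000 UMIs per cell these shares were 46.2%, 18.8%, 0.581% and 0.398%. Both Notch3 and Jag1 were read in 255 of the 452 vSMC/PC cells.

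The targets were spread differently from the receptors in stroma. Hes1, a transcriptional repressor, was highest in small epithelial labels: 321 CPM (274 to 373) in the muscle-like mimetic label of 35 cells and 220 CPM (185 to 260) in aaTEC1 of 44 cells. The larger labels lay between 106 CPM in mTEC1 and 5.63 CPM in Myeloid, with vSMC/PC at 103 CPM, EC:capEC at 58.0 CPM and capFb at 9.16 CPM. Dtx1, a cytoplasmic regulator of Notch, was rare, with 100 labelled UMIs in the whole stromal library. Of these 65 lay in the endothelial labels and 16 in 5 of the 39 cells labelled nmSC, and 10 labels had none.

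**Figure D2:**
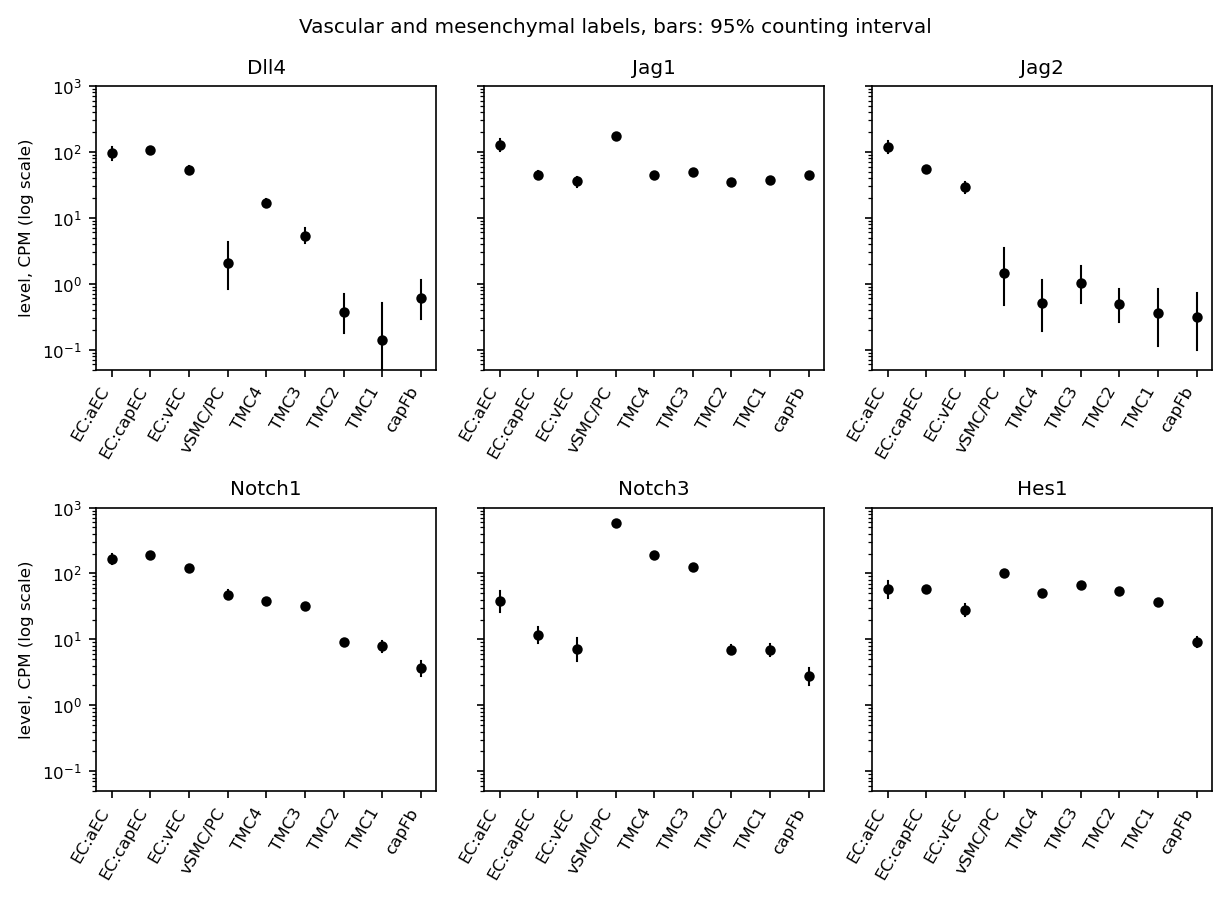
CPM of 6 members (log axis, bars are 95% counting intervals) in the endothelial, mural and fibroblast-like stromal labels. Notch3 steps down from vSMC/PC (582 CPM) through TMC4 and TMC3 to about 7 CPM in TMC2 and TMC1, and Dll4 is seen in the endothelial labels and TMC4.

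Arterial and capillary endothelium were compared first, since Notch is known to act in arterial identity. Jag1 was 2.83-fold (2.21 to 3.61), Jag2 2.19-fold (1.71 to 2.79) and Notch3 3.31-fold (2.05 to 5.26) higher in EC:aEC. The other 6 members stayed within 2-fold, among them Dll4 at 0.887. Thus 3 of 9 members passed 2-fold in the arterial direction, where 6.35% of all genes did, and 0 passed the other way, where 3.0% of genes did. The median log2 ratio was 0.44 over the members and 0.01 over all genes. Of 33 measured genes of a list of other Notch pathway members, 3 were higher (Mib2, Numbl and Dtx3, the last on 6 UMIs in EC:aEC) and 0 lower. With cells thinned to 1000 UMIs only 1 member passed. A 6-gene mural list moved alongside, at 361 CPM in EC:aEC and 150 CPM in EC:capEC, and its part in the result was not tested. The authors' cluster Endo-2 held 29 of the 90 arterial and 101 of the 636 capillary cells. Within the other cluster, Endo-1, arterial against capillary levels were 176 and 44.5 CPM for Jag1, 162 and 59.9 CPM for Jag2, 53.2 and 9.65 CPM for Notch3, and 137 and 123 CPM for Dll4. The mural list stood at 546 and 157 CPM there. Numbl and Dtx3 were also among the genes higher in Endo-2 than in Endo-1, and Endo-1 values of the pathway genes are not given.

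Capillary over venous endothelium was a comparison added after its values had been seen. Hes1 was 2.06-fold (1.63 to 2.61) and Dtx1 2.38-fold (1.27 to 4.73) higher in EC:capEC, which makes 2 of 9 members against 6.35% of genes. None was lower, against 4.74%. The Dtx1 value rests on few cells of Endo-2, which held 40 of the 41 capillary UMIs (in 18 cells) and 13 of the 14 venous ones (in 6 cells). In Endo-1, Dtx1 had 1 UMI in each label. Dll4 (1.98-fold) and Jag2 (1.86-fold) stood just under the threshold, and 6 members passed a threshold of 1.5-fold. The share of all genes past 1.5-fold is not given, so that count is no result about the members. The receptor Notch4 (3.37-fold) and the targets Hey1 (7.83-fold) and Heyl (3.03-fold) were the higher ones of 33 pathway genes, and Aph1b, a γ-secretase subunit, was the 1 lower. The members' median log2 ratio was 0.70, against 0.07 over all genes.

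vSMC/PC were set against the 5 fibroblast-like labels pooled. Notch3 was 11.9-fold (11.3 to 12.6), Jag1 4.25-fold (3.88 to 4.64), Notch1 3.14-fold (2.65 to 3.71) and Hes1 2.38-fold (2.12 to 2.66) higher. Dll1 (2.55-fold on 10 UMIs) and Jag2 (2.93-fold on 5 UMIs, interval 0.902 to 7.42) also passed, so that 6 of 8 measured members were higher against 15.8% of genes. Notch2 alone was lower, at 0.487 (0.413 to 0.570), against 9.42% of genes. The median log2 ratio was 1.45 over these members and 0.10 over all genes. Of 40 pathway genes 8 were higher and 0 lower, among them Nrarp, an inhibitor that Notch itself induces (112 against 0.671 CPM), and the targets Hey2 (36.7-fold) and Hey1 (27.1-fold). The other 5 were Bcl11b, Mfng, Neurl1b, Gata3 and Notch4, at 2.17-fold to 4.39-fold. The fibroblast list was itself lower in vSMC/PC, at 7170 CPM, than in TMC1, at 43879 CPM.

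The 4 TMC labels were compared as pairs after their values had been seen. TMC3 with TMC4 had 159 CPM of Notch3 and 11.4 CPM of Dll4, against 6.97 and 0.295 CPM in TMC1 with TMC2. The ratios were 22.8 (20.2 to 25.8) for Notch3, 38.8 (21.8 to 76.1) for Dll4, 4.86 (3.03 to 8.04) for Dll1 and 4.13 (3.63 to 4.69) for Notch1. These 4 of 8 members passed 2-fold, where 12.1% of genes did, and 0 passed downwards, where 8.96% did. Jag1, Notch2 and Hes1 were within 2-fold, at 1.30, 0.689 and 1.20. The members' median log2 ratio was 1.42, against 0.09 over all genes. In the pathway list 8 of 39 genes were higher, including Hey1 (11.6-fold) and Nrarp (6.53-fold) beside Hey2, Dlk1, Gata3, Dtx4, Tcf7 and Il2ra, and 3 were lower (Dlk2, Dner and Lfng, the last an enzyme that modifies Notch with sugar). The mural list moved alongside, at 598 CPM in TMC4 and 285 CPM in TMC3 against 75.8 and 48.4 CPM in TMC2 and TMC1, and its part in the result was not tested. In TMC4, 113 of 1249 cells had both Notch3 and Dll4, 714 had Notch3 alone and 46 had Dll4 alone.

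The cTEC and mTEC1 labels, each taken as a whole, differed little in these genes. Dll4 was 5.27-fold (2.76 to 10.9) higher in cTEC, on 49 against 12 UMIs, and was the 1 member of 8 past 2-fold, where 5.5% of genes were. None was lower, against 9.9% of genes. Jag2 (1.38), Dll1 (1.37), Jag1 (1.34), Notch1 (1.12), Notch2 (0.813) and Hes1 (0.727) stayed within 2-fold. The median log2 ratio was 0.29 over members and -0.02 over all genes. Of 37 pathway genes 3 were higher (Dlk2, Hey2 and Dtx3) and 9 lower (Dll3, Dner, Notch4, Neurl1b, Psen2, Hes6, Hey1, Dtx4 and Il2ra). Il2ra had the lowest of these ratios, 0.0154. The medullary list was as high in this cTEC label as in mTEC1, as given above. Jag2 and Dll1 were far lower in the TEC-a cells of cTEC than in its TEC-b cells, on few TEC-a counts. TEC-a was not compared with mTEC1 on its own.

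**Figure D3:**
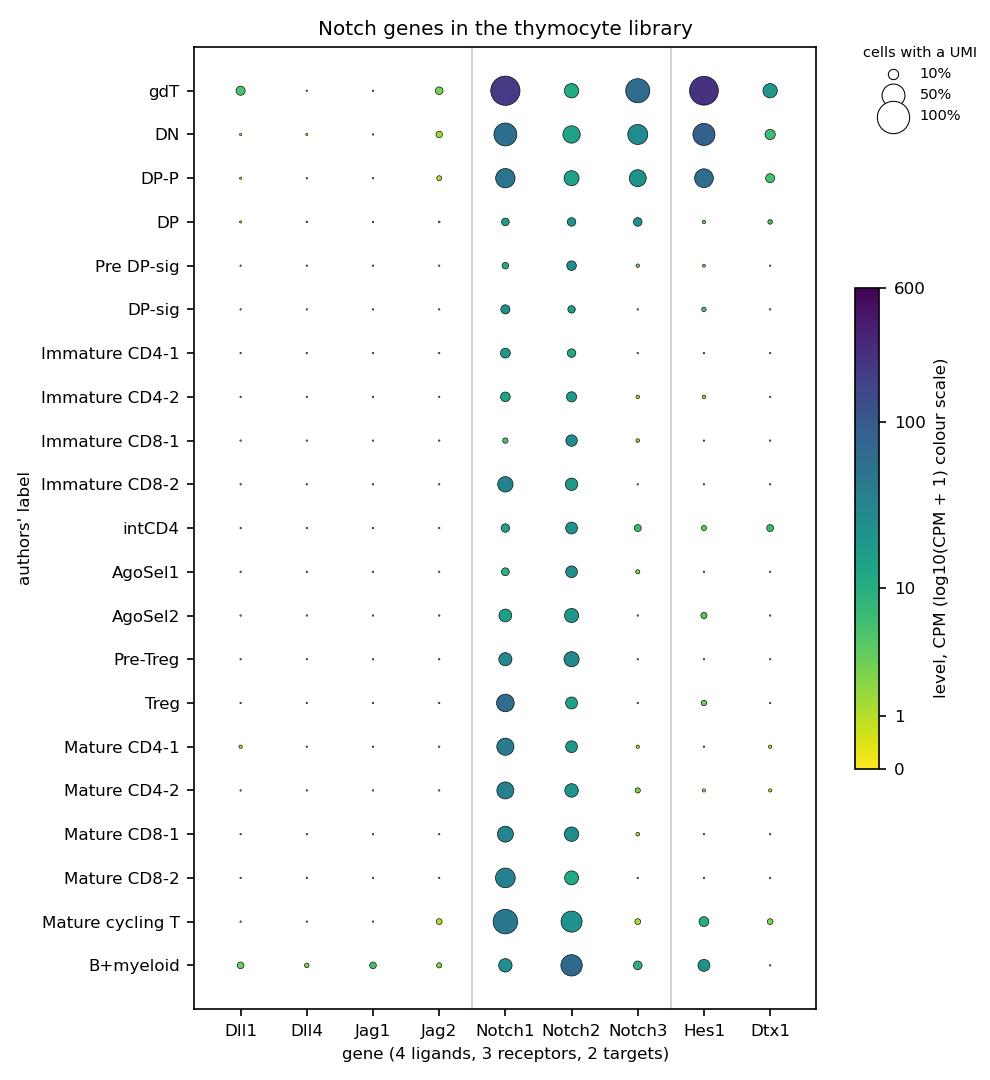
Levels of the 9 genes in the 21 labels of the thymocyte library, drawn as for the stroma. Notch1, Notch3, Hes1 and Dtx1 are each highest in gdT, the ligands are near 0 in thymocyte labels, and Notch2 is highest in B+myeloid (68.6 CPM).

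In the thymocyte library Notch1 had its highest level in gdT. It stood at 198 CPM (182 to 215, 539 UMIs) in gdT, 63.1 CPM (20 UMIs in 37 cells) in Treg, 57.7 CPM (53.3 to 62.4) in DN, 49.3 CPM in DP-P, a label with 1114 CPM of Mki67, and 16.2 CPM (14.4 to 18.1) in DP, the double-positive majority of 5202 cells. The lead of gdT over Treg was 3.14-fold (2.01 to 5.18). Notch1 was the 1 member with a leading label here, where 12.4% of 10010 genes had one. The lead did not hold with cells thinned to 1000 UMIs (Hes1 led in gdT, 3.44-fold), with the authors' initial clusters (Notch2 led in B+myeloid) or without the cells that carried UMIs of other cell types (0 members). Of the pathway list, Dtx4 led in B+myeloid (3.23-fold) and Il2ra in Treg (4.23-fold). Levels did not fall steadily with maturation: Mature CD4-1 stood at 41.3 CPM and Immature CD8-1 at 5.08 CPM. Notch1 was read in 82.0% of gdT, 50.3% of DN and 5.40% of DP cells, with medians of 19803.5, 23190 and 3205.5 UMIs. At 1000 UMIs per cell the shares were 18.0%, 3.08% and 1.47%.

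Notch3 and Notch2 had other patterns. Notch3 was at 64.3 CPM (55.1 to 74.6) in gdT, 27.2 CPM in DN, 22.7 CPM in DP and 22.4 CPM in DP-P. It was lower from the Pre DP-sig label on, with 3 UMIs there (2.50 CPM), 0 in DP-sig, and 12 UMIs over the 14 later labels and 1156 cells (1.23 CPM, 0.634 to 2.14). Of all 21 labels 7 had none. Notch2 was highest in B+myeloid at 68.6 CPM (58.5 to 79.9) and lay at 20.9 CPM in DP, 14.1 CPM in DN and 11.8 CPM in gdT. It was thus the receptor without an early peak.

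Hes1 marked the early stages. It stood at 241 CPM (223 to 260, 656 UMIs) in gdT, 84.7 CPM (79.4 to 90.4) in DN, 61.7 CPM (58.0 to 65.5) in DP-P and 3.22 CPM (2.47 to 4.14) in DP. Each step from gdT to DN (2.84-fold) and from DN to DP-P (1.37-fold) exceeded counting error. After DP-sig, 16 UMIs were left in 1156 cells, and 8 of 21 labels had none. Hes1 was read in 79.7% of gdT cells and 0.865% of DP cells, or 18.8% and 0.213% at 1000 UMIs per cell. Dtx1 was low throughout, at 19.5 CPM (14.6 to 25.5, 53 UMIs) in gdT, 6.28 CPM in DN, 5.87 CPM in DP and 5.73 CPM in DP-P, and 13 labels had none. Of 128 gdT cells 96 had both Notch1 and Hes1, with a median of 21294 UMIs, and the 17 with neither had 5925.

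**Figure D4:**
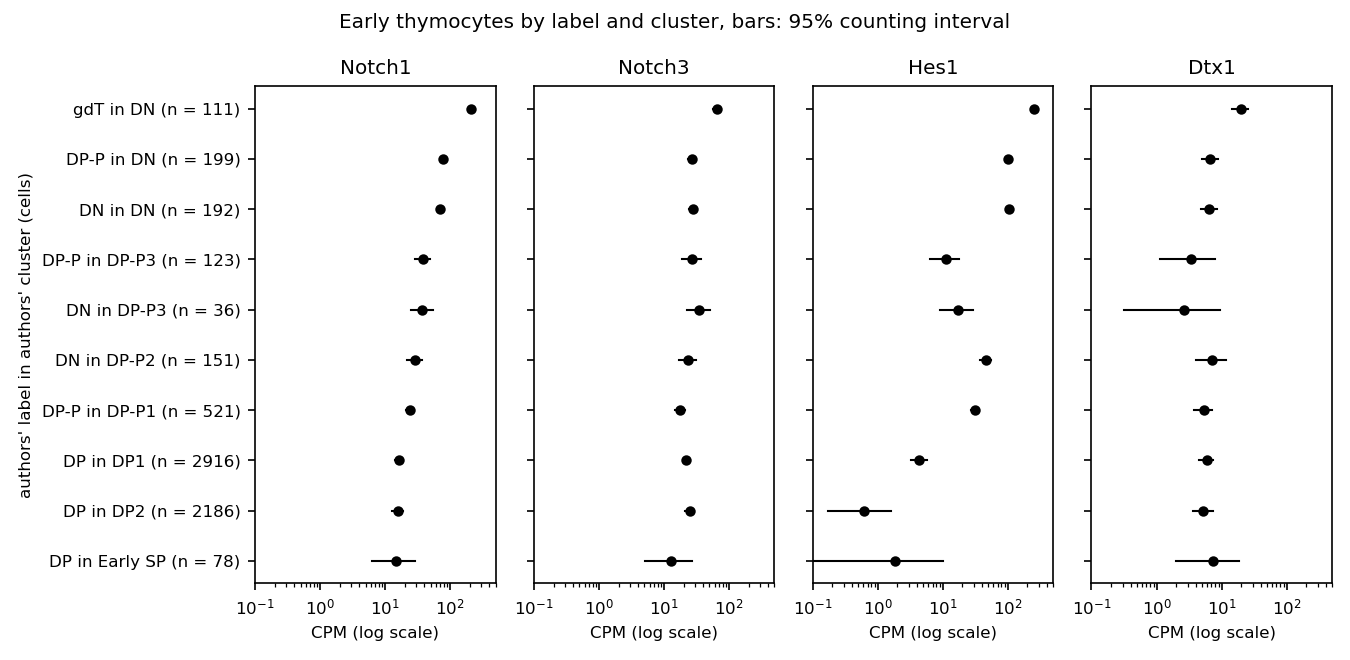
CPM of Notch1, Notch3, Hes1 and Dtx1 in early thymocyte labels split by the authors' cluster, with cell numbers and 95% counting intervals. Within the DN cluster, cells labelled gdT are highest, and Hes1 is near 0 in DP cells.

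DN and DP labels were compared because Notch signalling is known to decline at β-selection, the checkpoint between DN and DP stages. The DN label carried Cd8a and Mki67 at the levels given above, and 151 and 36 of its 390 cells lay in the clusters DP-P2 and DP-P3. Hes1 was 26.3-fold (20.3 to 34.6), Notch1 3.57-fold (3.11 to 4.10) and Jag2 4.66-fold (1.73 to 14.5, on 22 UMIs) higher in DN. Notch3 (1.20), Dtx1 (1.07) and Notch2 (0.676) stayed within 2-fold, and Notch3 turned to 0.887 without the cells that carried UMIs of other cell types. So 3 of 6 measured members were higher, where 18.2% of genes were, and 0 lower, where 28.7% of genes were. The median log2 ratio was 1.05 over these members and -0.31 over all genes. The pathway list went the other way, with 4 of 32 genes higher (Notch4, Lfng, Nrarp and Myc) and 15 lower, at a median of -0.87. Among the lower ones were the cleavage genes Adam10, Psen2, Ncstn and Psenen, the trafficking genes Mib1, Mib2, Numb and Itch, the coactivators Maml1, Maml2 and Maml3, and Dtx3, Dtx4 and Il2ra. Il2ra, the interleukin-2 receptor chain that marks DN stages, stood at 3.51 CPM in DN and 67.5 CPM in DP.

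DP-P over DP, added after the values had been seen, gave nearly the same result. Hes1 was 19.1-fold (14.8 to 25.2), Notch1 3.05-fold (2.67 to 3.48) and Jag2 3.50-fold (1.34 to 10.7) higher, 3 of 6 members against 14.6% of genes. Without the cells that carried UMIs of other cell types, Hes1 alone passed (13.6-fold), and Notch1 stood at 1.97. None was lower, against 24.3%. It shares the DP cells with the comparison before, so it is no second observation of them. The members' median log2 ratio was 0.79 and that of all genes -0.31. In the pathway list 4 of 33 were higher (Notch4, Neurl1b, Nrarp and Myc) and 13 lower (among them Mib1, Mib2, Numb, Itch, Adam10, Psen2, Ncstn, Maml1, Maml2, Maml3, Dtx4 and Il2ra).

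gdT over DN, also added, separated the early labels. Notch1 (3.43-fold, 3.05 to 3.86), Dtx1 (3.10-fold, 2.12 to 4.51), Hes1 (2.84-fold, 2.57 to 3.15) and Notch3 (2.36-fold, 1.95 to 2.86) were higher, 4 of 6 members against 13.9% of genes. None was lower, against 5.1%, and Notch2 stood at 0.832. The median log2 ratio was 1.37 over the members and 0.12 over all genes. Of 32 pathway genes 8 were higher and 0 lower, led by Lfng (8.95-fold) and followed by Maml2, Psen2, Dtx4, Maml3, Il2ra, Dtx3 and Myc at 2.19-fold or more. The progenitor gene Kit stood at 47.4 CPM in gdT and 14.3 CPM in DN. Il7r stood at 243 and 15.1 CPM, but it was also high in mature labels, such as Mature CD4-1 at 327 CPM. The T-cell receptor complex gene Cd3e stood at 921 CPM in gdT and 489 CPM in DN. The part of stage in the result was not tested. Within the authors' DN cluster, cells labelled gdT had 205 CPM of Notch1 and 251 CPM of Hes1, and those labelled DN had 68.6 and 103 CPM.

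The authors' clusters split the DN label as well. Its cells in the DN cluster (192) had 103 CPM of Hes1, those in cluster DP-P2 (151) had 46.0 CPM and those in DP-P3 (36) had 17.2 CPM. Among DP-P cells, Hes1 was 102 CPM in the DN cluster, 30.9 CPM in DP-P1 and 11.0 CPM in DP-P3. In these 2 labels Hes1 differed more between clusters than between the labels within the DN cluster. Notch3 was flatter over the same 6 sets, between 17.6 and 34.5 CPM.

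**Figure D5:**
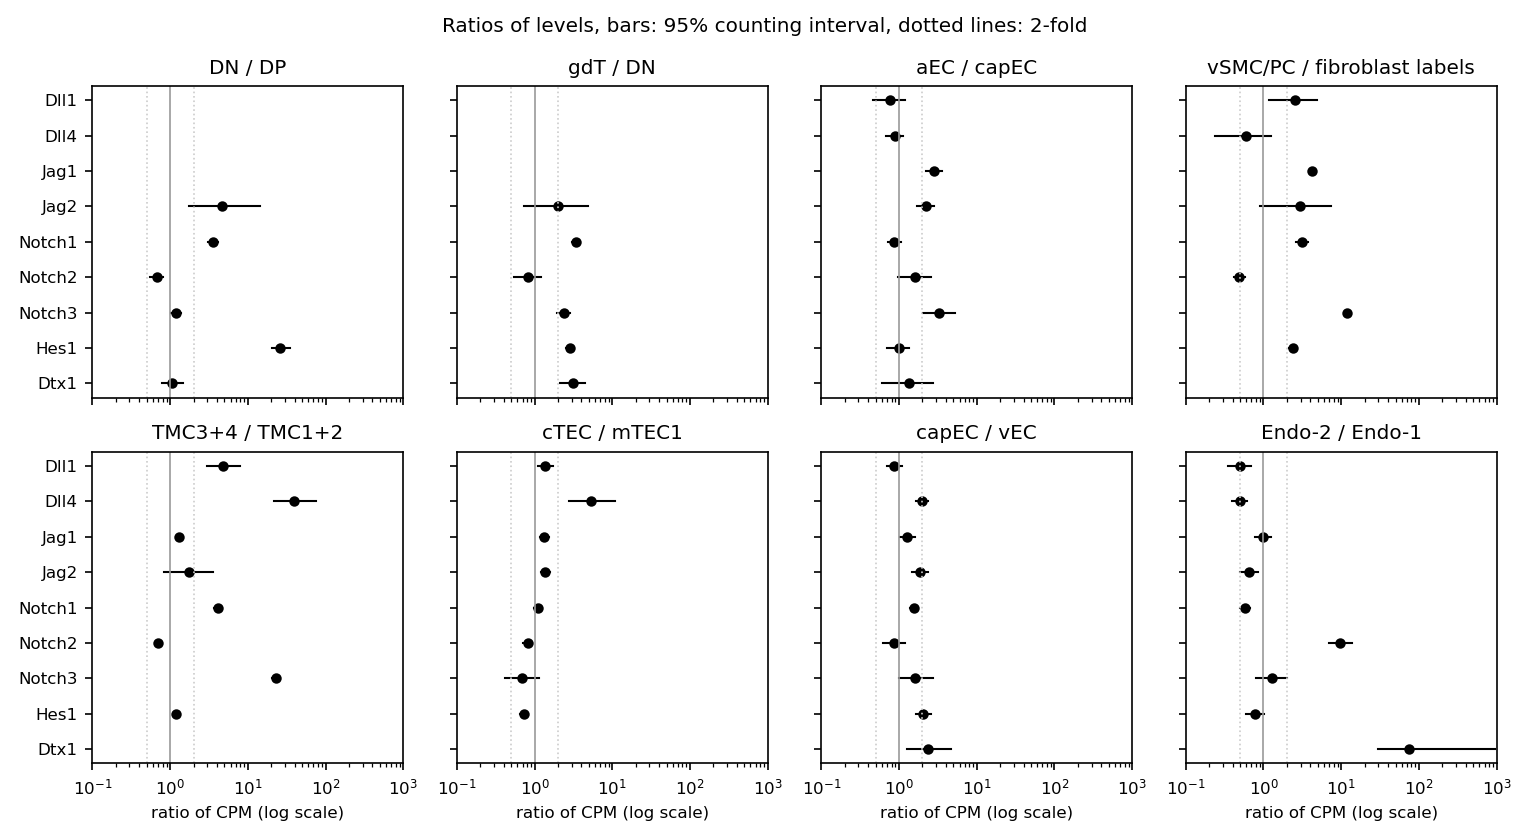
Ratios of CPM (log axis) for the members in 8 comparisons, with 95% counting intervals and dotted lines at 2-fold. Hes1 stands apart in DN over DP (26.3-fold), Notch3 and Dll4 in TMC3 with TMC4 over TMC1 with TMC2, and Notch2 and Dtx1 in Endo-2 over Endo-1, where the 2 Dtx1 UMIs of Endo-1 are drawn as 3.

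Dtx1 in stroma lay mostly in 1 of the authors' initial clusters, Endo-2, which held 82 of its 100 labelled UMIs in 243 cells. Cells with an endothelial label were therefore compared between Endo-2 (190 cells, median 9418 UMIs) and Endo-1 (879 cells, median 6968 UMIs), after these values had been seen. Dtx1 had 63 UMIs (32.4 CPM) in the first and 2 UMIs (0.289 CPM) in the second, a ratio with a 95% interval of 29.7 to 945. Notch2 was 9.75-fold (6.93 to 13.9) higher, at 66.4 against 6.80 CPM. Dtx1 prompted the comparison, so its passing was fixed in advance. The count of 2 of 9 members, against 12.4% of genes, includes it and is no result about the members. Dll4 was the 1 lower (0.493, 0.391 to 0.615), against 6.19%. The members' median log2 ratio was -0.35 and that of all genes -0.01. In the pathway list 4 of 33 were higher, including Numbl (9.08-fold) and the target Heyl (6.77-fold) beside Dtx4 and Dtx3, and 3 lower (Hey1, Nrarp and Gata3).

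The cells with Dtx1 in Endo-2 shared genes known from lymphatic endothelium, picked here after the values were seen. Of 33 Endo-2 cells with a Dtx1 UMI, 32 had Mmrn1, 31 Reln, 30 Lyve1, 27 Prox1 (the lymphatic master regulator) and 26 Flt4. Of the other 210 cells, 6 or 7 had each of them. The Dtx1 cells were shallower, with a median of 7634 UMIs against 11213 in the others. Pdpn, Ccl21 and Cldn5 were looked at as well and were read more widely. They were found in 80, 128 and 67 of the 190 Endo-2 cells with an endothelial label. Their overlap with Dtx1 is not given. In the 34 Endo-2 cells with Prox1, Dtx1 stood at 270 CPM, Notch1 at 199 CPM and Dll4 at 101 CPM, with 0 UMIs of Jag2. In the 209 without Prox1 the same genes stood at 4.28, 95.9, 37.7 and 41.5 CPM. All 16 Dtx1 UMIs of the nmSC label came from its 16 Endo-2 cells.

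Over all 243 labelled Endo-2 cells, Notch2 stood at 82.5 CPM (22 UMIs) in the cells with Prox1 and at 62.0 CPM in those without. The values that follow are for cells with an endothelial label only. The fibroblast list stood there at 16309 CPM in Endo-2 (190 cells) and 557 CPM in Endo-1. In Endo-2 cells with under 1000 CPM of that list (60 cells), Notch2 was 38.2 CPM and Dtx1 147 CPM. In those with 1000 to 20000 CPM (88 cells), they were 62.9 and 10.9 CPM. In those with 20000 CPM or more (42 cells), Notch2 was 83.9 CPM and Dtx1 had 0 UMIs. Of the 60 cells with the low list, 22 had Prox1, and the part of fibroblast RNA in the Notch2 difference was not tested.

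Genes most alike in pattern were ranked by Pearson's r of log2(CPM + 1) over labels of at least 50 cells, which share 1 library and differ in depth. Over 18 stromal labels the nearest gene was Rasl12 for Notch3 (r = 0.974), followed by Ndufa4l2 and Des (0.956 each). It was Smagp for Notch1 (0.951), Itpkb for Dtx1 (0.948), Pgm5 for Dll1 (0.943), Epb41l4a for Jag2 (0.931), Rras for Jag1 (0.910), Sra1 for Notch2 (0.898), Pik3r3 for Dll4 (0.885) and Cep126 for Hes1 (0.860). Over 17 labels of the thymocyte library it was Fgf8 for Dtx1 (0.952), Mpzl2 for Notch3 (0.946), Cdc6 for Hes1 (0.945), Gfpt1 for Notch2 (0.887) and Gfer for Notch1 (0.844). Among the members themselves, Dll1 was closest to Notch1 (0.890) and Jag2 (0.883) in stroma, and Dtx1 lay farthest from Notch2 (-0.81). In the thymocyte library Notch3 ran with Dtx1 (0.882) and with Hes1 (0.817).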

How the data were processed

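Per the file headers, the authors' count matrices came from Cell Ranger 8.0.0 and hold whole UMI counts per gene and barcode. The submitters' processing notes name Seurat 5.3.0 and the build mRatBN7.2, and the annotation is not given in the sources used here. Labels and clusters are the authors' own, and the study used published mouse data to build its annotation references. Cells were as deposited with a label: no further filter and no doublet caller was run, so cells captured together remain. UMIs were summed per label of at least 20 cells and scaled to 1000000. With 1 sample a group there is no test, and whether a library pooled animals is not stated. Ratios had exact conditional binomial intervals, levels Poisson and shares Clopper-Pearson ones, all at 95%. A leading label was 3-fold above the next on 20 UMIs, and a difference 2-fold on 20 UMIs over both groups. In those counts and medians a value under 3 UMIs was set to 3. Cells under 1000 UMIs, 83 of the stromal library and 51 of the other, were dropped where cells were thinned (random seed 7).

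The members, the 43 other pathway genes and the marker lists were chosen with earlier results of these data known. The text names every member, pathway genes past a threshold (except a gene that is not reported here), and, of the 3 genes ranked most alike in pattern, the first, or all 3 for Notch3 in stroma. The comparisons of DN with DP, cTEC with mTEC1, EC:aEC with EC:capEC and vSMC/PC with fibroblast-like labels were planned, and the others were added after seeing the data. The scripts were tested on simulated counts. Versions were SciPy 1.17.1 and NumPy 2.4.6 under Python 3.11.15, with matplotlib 3.10.9 for figures and pandas 2.3.3 for tables. Promoter windows are RefSeq's (GRCr8), a later build than that of the counts, and were matched by symbol only.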

Additional observations from a re-analysis of the deposited data

Results flagged for a closer look

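In the stromal library, 2934 barcodes carried no label and entered no comparison, and all 9 genes were read in them above the limit of 3 UMIs (0.346 CPM). The ligands stood at 8.31 CPM (Dll1), 10.6 CPM (Dll4), 41.8 CPM (Jag1) and 38.3 CPM (Jag2), against 10.3, 9.69, 50.1 and 20.6 CPM in the labelled cells. The receptors Notch1, Notch2 and Notch3 stood at 56.2, 70.6 and 39.9 CPM, against 44.3, 83.4 and 48.0 CPM. Hes1 was at 32.6 CPM and Dtx1 at 1.39 CPM, against 54.0 and 0.760 CPM.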

How the results depend on the processing

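Of 831 values recomputed under other settings, 706 kept their direction and side, 113 moved and 2 turned direction. In addition, 7 counts of members past a threshold rose and 3 such counts fell. An unchanged count can hide a change of gene. The thymocyte library kept 1 leading member when thinned and with the initial clusters, but that member was not Notch1. A 1.5-fold threshold raised the members past it to 6 for capillary over venous endothelium and to 6 for Endo-2 over Endo-1, where arterial cells alone also gave 6. No share of all genes is given at the settings of this section. The counts here show how far the results depend on a setting and are no result about the members. Thinning left 1 member for arterial over capillary endothelium. The authors' initial clusters gave 2 leading stromal labels, adding Dtx1 in Endo-2 (13.5-fold). In the thymocyte library, members with a leading label numbered 4 at 2-fold, 2 by the mean of the cells' CPM (adding Hes1), 2 over labels of at least 50 cells (adding Dtx1), 1 when thinned, then Hes1 (3.44-fold) and not Notch1, and 1 with the initial clusters, then Notch2 in B+myeloid. They numbered 0 without the 1621 cells that carried UMIs of other cell types. That filter left 1 member in DP-P over DP and turned Notch3 in DN over DP to 0.887. It took 105 of 128 gdT cells, which were deeper, mostly through Pecam1 (858 thymocytes), Krt18 (389) and Cd79a (246). With those 3 not counted, an added setting, Notch1 led gdT again (3.70-fold). Thinning turned Notch2 in B+myeloid over Pre-Treg to 0.849. The cause was not tested. No paired analysis was possible because a group is 1 library. Depth limits the small labels most: 3 UMIs are 9.47 CPM in Treg and 3.75 CPM in EC:aEC.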
